A study of Mus musculus with 6 samples.

Results

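Expression of 76 genes of the Rab GTPase system was measured in activated CD8+ T cells (CD8-TC) that carry the Runx3-/- genotype or are wild type (WT). The members were all genes whose symbol is Rab with a number and at most 2 letters, or begins with Dennd, leaving out Rab27a and Rab27b, and they were 76 of the 19938 genes that at least 1 row of the array names alone. For a gene with several rows the row with the highest mean over the 6 arrays was used, and all 9 rows of Dennd4a are given. By their products, 57 members encode Rab GTPases and 16 encode proteins with a DENN domain. The last 3 match by name alone and are Rab3ip, which encodes the Rab8 exchange factor Rabin8, Rab5if, which encodes an endoplasmic reticulum membrane protein, and Rab10os, a transcript opposite Rab10.

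Rab GTPases are small membrane proteins that mark the compartments of the secretory and endocytic routes. They act as switches, since the GTP-bound form recruits effectors such as motors and tethers, exchange factors load GTP, and GTPase-activating proteins (GAPs) end the active state. Proteins with a DENN domain are the largest family of Rab exchange factors, and in human cells several DENN subfamilies each act mainly on a Rab of their own. In CD8-TC this traffic carries receptors to and from the immunological synapse and lytic granules to the plasma membrane.

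The 3 Runx3-/- and the 3 WT mice were ICR animals labelled as males of 6 weeks, and each gave 1 spleen sample and 1 array. CD8-TC were taken with anti-CD8 beads, stimulated with anti-CD3 and anti-CD28 for 2 days and kept for 4 days in IL-2 at 100 units per ml, treatments that both genotypes share. Runx3 is a DNA-binding protein with a Runt domain that acts in cytotoxic T cells and natural killer cells, and the question of the comparison is which genes differ in its absence. Runx3-/- cells alone were also sorted by flow cytometry, once against CD11c+ dendritic cells and once, after culture, against CD4+CD8- cells, so sorting and genotype cannot be told apart. Values are log2 expression after robust multichip averaging (RMA), and every difference is Runx3-/- minus WT on that log2 scale.

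Runx3 itself had 8.91, 9.11 and 9.27 on the arrays labelled Runx3-/-, against 8.77, 8.26 and 9.16 on the WT arrays, a difference of 0.37 (SE 0.24, limma adjusted p = 0.521). The groups overlapped, the array reads along the whole transcript, and the sources used here do not name the disrupted part of the gene. This level therefore checks nothing, and the arrays are called KO-labelled. WT1, labelled male, had Xist at 10.6, against 3.31 to 3.40 on the other 5 arrays. Its Y-linked Eif2s3y stood at 3.93, against 9.24 to 9.39 on the others. For some genes, but not all, results are therefore also given without WT1. All 7 CD8 T cell markers in the table passed the filter on dim genes, with Cd8a at 10.7 to 11.5 on KO-labelled and 11.3 to 11.5 on WT arrays. The markers were not all level, since 2 of them, Cd5 and Cd2, were higher on all KO-labelled than on all WT arrays. Their differences were 1.12 and 0.56 (limma adjusted p = 0.216 and 0.197). No marker was lower on all KO-labelled arrays, and the median difference of the list was 0.13. Summed on the linear scale, 10 dendritic cell markers came to 119 to 172 on KO-labelled and 116 to 135 on WT arrays, and 4 CD4 T cell markers to 209 to 319 on KO-labelled and 169 to 219 on WT arrays. The overlap of the CD4 sums hides Cd4 itself, which was higher on all KO-labelled than on all WT arrays (0.95, limma adjusted p = 0.250). Zbtb7b (0.64) and Foxp3 (-0.32) had overlapping groups, and Cd40lg was dim. The study's threshold asks for at least a 1.5-fold difference and an unadjusted p of at most 0.05. Past it in limma, Cd4 and Zbtb7b were higher, 2 of 3 tested CD4 T cell markers, against 3.97% of all genes. Cd5 was higher past it too, 1 of 7 tested CD8 T cell markers. The sums of markers of natural killer cells (47.3 to 54.1 on KO-labelled, 61.0 to 104 on WT arrays), B cells (72.2 to 86.8 on KO-labelled, 91.6 to 116 on WT arrays) and macrophages and granulocytes (119 to 155 on KO-labelled, 159 to 163 on WT arrays) did not overlap between the groups. Single genes, Klrb1c, Cd79b and Cd68, differed most in these lists, with -1.56, -0.93 and -0.82. The median difference over all markers of a list in the table was -0.18, 0.05 and -0.01. Klrb1c and Cd79b were lower past the study's threshold, against 4.33% of all genes in that direction, and Cd68 did not pass it. Klrb1c was 1 of 2 tested natural killer cell markers, and Cd79b the 1 tested B cell marker. KO2 stood apart in a list of 17 genes of dividing cells, whose median lay 1.52 below the genes' own means there, against -0.33 to 0.72 on the other 5 arrays. The part of these lists in the differences between members was not tested. In bulk RNA, fewer or more cells of a type and less or more RNA per cell cannot be told apart. This holds for Cd4 and Zbtb7b too, which the study lists among genes reported to respond to Runx3 loss in CD8-TC development.

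Of the 76 members, 52 passed the filter, which asks that the highest of a gene's 6 values reach the median of all values, 4.26. These were 36 of the 57 Rab GTPases, 13 of the 16 DENN genes and all 3 members matched by name alone. The 24 dim members were 21 Rab GTPases and 3 DENN genes, and their group means differed by -0.21 to 0.11. They held Rab3a, Rab3b and Rab3c of synaptic and other regulated exocytosis, Rab13, which carries the integrin LFA-1 in lymphocytes, Rab26 and Rab44 among the secretory genes, Rab38, Rab7b and Rab9b among the lysosomal ones, and Rab15, Rab17 and Rab25 of endocytic and recycling routes. The others were the Golgi genes Rab6b, Rab30, Rab33a, Rab34, Rab36, Rab39 and Rab39b, then Rab40b, Rab42, Dennd2a, Dennd3 and Dennd5b. Just below the filter lay Rab25 and Dennd5b with highest values of 4.23 each, and just above it Rab31 with 4.29 and Dennd6b with 4.42. Levels of different genes are not set against each other, since each rests on its own probes.

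Dennd4a was much lower in KO-labelled cells and was the only member past an adjusted p of 0.05 over all 10021 genes tested, 1 of 52 members (1.92%) against 0.629% of all genes. In the higher direction 0 of 52 members passed it, against 0.269% of all genes, and in the lower direction 1 member did, against 0.359%. In human cells its product is an exchange factor for Rab10, which carries vesicles from the Golgi and endosomes to the plasma membrane. Its brightest row had 8.13, 7.31 and 7.99 on the KO-labelled arrays, against 9.86, 9.48 and 10.30 on the WT arrays. All KO-labelled arrays lay below all WT arrays, with KO2 lowest and WT3 highest. The difference was -2.07 (SE 0.29, 95% interval -2.76 to -1.39), 4.20 times lower in KO-labelled cells (limma adjusted p = 0.0388). Without WT1 the difference was -2.08, but the adjusted p was 0.124, and leaving out any other single array also ended the call, with adjusted p between 0.0551 and 0.149 over the 6 fits. Every one of those fits, whose differences ran from -2.27 to -1.82, kept Dennd4a past the threshold of the study, which asks for at least a 1.5-fold difference and an unadjusted p of at most 0.05.

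The other rows of Dennd4a showed the same separation. Their probes read the same transcript on the same arrays, so the 9 rows are not independent. In RefSeq the lncRNA gene Gm36459 overlaps the start of Dennd4a, and whether a row also reads it was not tested. The difference ran from -2.54 to -1.84 over the rows, with a median of -2.14, which is 3.57 to 5.81 times lower in KO-labelled cells. The groups stayed apart in 9 of 9 rows, and the gap from the highest KO-labelled to the lowest WT array was 1.21 to 1.77. Row 10586252 differed most, with 6.48, 5.33 and 5.60 on the KO-labelled arrays, against 8.25, 8.18 and 8.59 on the WT arrays. Row 10586227 differed least, with 7.44, 6.80 and 7.11 on the KO-labelled arrays, against 8.99, 8.65 and 9.22 on the WT arrays. Within the groups the arrays kept much of their order from row to row, KO1 being the highest KO-labelled array in 9 rows and WT3 the highest WT array in 9. When limma was run on all 19971 rows past the filter, 7 of the 9 passed an adjusted p of 0.05, with 0.0165 as the lowest and 0.0713 as the highest value, while 0.145% of all rows passed it in the lower direction. Without WT1 none of the 9 passed it.

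**Figure D1:**
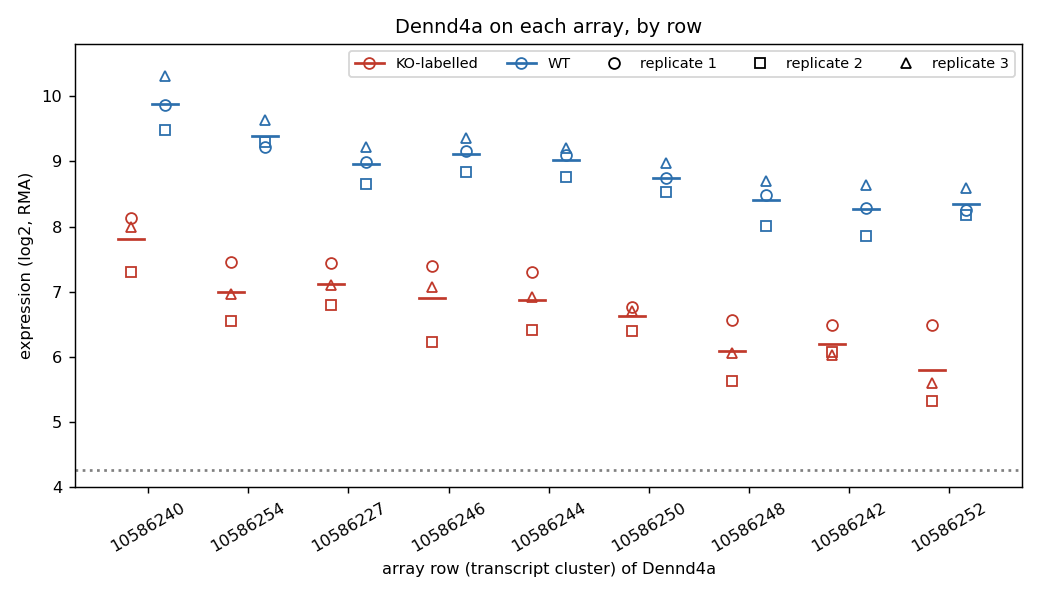
Log2 expression of the 9 rows of Dennd4a on each array (x axis, row of the array in order of mean; y axis, log2 RMA value; red KO-labelled, blue WT; circles, squares and triangles are replicates 1, 2 and 3, bars are group means, the dotted line is the filter at 4.26). In every row the 3 KO-labelled arrays lie below the 3 WT arrays; heights of different rows are not comparable.

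The starts of Dennd4a, of Rab29, which was the lower Rab gene, and of Rab10, the human DENND4 substrate, are shown because Runx3 binds DNA through the Runt domain. The sequences are from RefSeq on GRCm38.p6 and run 5′ to 3′ on the gene's strand from 250 bases before to 50 after the annotated start. Capitals mark the RUNX letters on either strand, which were searched as TGTGGT (found in 16.8% of all promoter windows), TGTGGC (in 18.9%), TGCGGT (in 6.45%) and TGCGGC (in 12.4%).
Dennd4a, chr9:64810761-64811060, plus strand: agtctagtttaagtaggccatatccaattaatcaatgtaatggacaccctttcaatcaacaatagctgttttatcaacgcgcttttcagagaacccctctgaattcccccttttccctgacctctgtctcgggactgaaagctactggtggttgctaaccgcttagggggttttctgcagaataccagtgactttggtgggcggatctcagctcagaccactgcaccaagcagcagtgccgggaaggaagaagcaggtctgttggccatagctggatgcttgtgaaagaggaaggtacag
Rab29, chr1:131867027-131867326, plus strand: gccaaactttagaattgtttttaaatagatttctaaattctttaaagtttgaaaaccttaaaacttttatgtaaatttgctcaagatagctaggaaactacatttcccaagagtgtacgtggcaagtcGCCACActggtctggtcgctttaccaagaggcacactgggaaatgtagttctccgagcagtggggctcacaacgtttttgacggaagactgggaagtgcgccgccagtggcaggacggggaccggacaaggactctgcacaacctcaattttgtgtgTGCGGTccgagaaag
Rab10, chr12:3309920-3310219, minus strand: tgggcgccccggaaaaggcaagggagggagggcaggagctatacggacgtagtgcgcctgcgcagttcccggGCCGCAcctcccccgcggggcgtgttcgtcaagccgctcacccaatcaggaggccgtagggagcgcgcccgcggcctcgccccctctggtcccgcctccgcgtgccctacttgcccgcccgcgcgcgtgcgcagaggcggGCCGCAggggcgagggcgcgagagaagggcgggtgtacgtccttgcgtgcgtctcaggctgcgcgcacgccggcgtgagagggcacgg
The Dennd4a window held none of these letters, the Rab29 window held 2 matches, which begin at positions -122 and 36 from the start, and the Rab10 window held 2. The windows of Dennd2d, a member described below, are not printed and held 1, 1 and 2 matches, the single match being shared by overlapping windows. At least 1 match was found in 45.2% of all 32851 promoter windows of the table and in 60.2% of the 83 windows of the 65 members that matched by symbol. The member windows were also richer in G and C, with a median of 62.0% against 52.7% in all windows, and what that share owes to it was not tested. A match is only a match of letters. In resting CD8-TC the study placed most Runx3-bound regions far from gene starts, outside windows of this size. A window without a match therefore does not show that Runx3 leaves the gene unbound.

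Neither of the 2 other genes of the DENND4 subfamily passed a threshold. Dennd4b, also a Rab10 exchange factor in human cells, had 6.96, 7.23 and 7.04 on the KO-labelled arrays, against 6.76, 6.81 and 6.78 on the WT arrays. All KO-labelled arrays lay above the WT arrays, which were nearly level with each other, but the difference of 0.30 (SE 0.13) had an adjusted p of 0.375 in limma. Dennd4c, a Rab10 exchange factor as well, had 7.98, 8.30 and 8.81 on the KO-labelled arrays, against 9.0, 7.84 and 9.14 on the WT arrays. WT2 was the lowest of all 6 arrays there and the other WT arrays the highest, so that the difference was -0.29 (SE 0.38, adjusted p = 0.752) and, without WT2, -0.70, past the study's threshold. Rab10 had 9.43, 9.45 and 9.26 on the KO-labelled arrays, against 9.32, 9.44 and 9.24 on the WT arrays. The groups overlapped almost fully, and the 95% interval of the difference of 0.04 ran from -0.27 to 0.36, inside a 1.5-fold change either way.

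None of the tested neighbours of Dennd4a on chromosome 9 passed a threshold. Rab11a, the member next to it, which serves slow recycling from the recycling endosome, had 8.06, 7.81 and 7.93 on the KO-labelled arrays, against 8.20, 8.33 and 8.04 on the WT arrays. The groups overlapped by 1 KO-labelled array, KO1, and the difference was -0.26 (SE 0.15, adjusted p = 0.461). Beyond it Megf11 was dim, and Dis3l had 6.25, 6.20 and 6.37 on the KO-labelled arrays, against 6.60, 6.53 and 6.55 on the WT arrays. All its KO-labelled arrays were below the WT arrays, by a smaller amount (-0.28, adjusted p = 0.370). On the other side Slc24a1 was dim, and past it Ints14 differed by -0.07 and Hacd3 by 0.07, with overlapping groups in both.

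Rab29, also called Rab7l1, was the only Rab GTPase past the study's threshold, which 3 of the 52 members passed (5.77%), against 8.3% of all genes. Lower past it were 2 members, Dennd4a and Rab29 (3.85%), against 4.33% of all genes. In human cells its product recruits the kinase LRRK2 to membranes of the late endosomal and Golgi region. It had 7.15, 6.32 and 6.83 on the KO-labelled arrays, against 7.50, 7.68 and 7.67 on the WT arrays. All KO-labelled arrays lay below all WT arrays, KO2 lowest, and the WT arrays were close to each other. The difference was -0.85 (SE 0.22, 95% interval -1.38 to -0.32), 1.81 times lower in KO-labelled cells (unadjusted p = 0.00669), but it did not pass over all genes (limma adjusted p = 0.188). It stayed past the study's threshold in each of 14 alternative fits, with differences of -1.05 to -0.63 and -0.91 without WT1. KO2, the array with the lowest dividing-cell list, was also the lowest for Rab29, and without it the difference was -0.63. On chromosome 1 its neighbours Slc41a1 and Nucks1 differed by -0.14 and 0.01, with overlapping groups.

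Dennd2d was the third member past the study's threshold and the only higher one, against 3.97% of all genes in that direction. DENND2 proteins are Rab9 exchange factors in human cells, and Rab9 returns cargo from late endosomes to the Golgi. Dennd2d had 8.86, 9.22 and 8.79 on the KO-labelled arrays, against 8.24, 7.86 and 8.81 on the WT arrays. The groups overlapped, since WT3 lay above KO3, and WT2 was the lowest array. The difference was 0.65 (SE 0.26, unadjusted p = 0.0417, limma adjusted p = 0.332), and it passed the study's threshold in 5 of 14 alternative fits only. Without WT1 it was 0.62 and did not pass. Rab9 differed by 0.01, with a 95% interval of -0.41 to 0.43, and Dennd2c, the other tested gene of the subfamily, by -0.19, with KO2 far below its own group at 3.97, against 5.05 and 5.48 in the other KO-labelled arrays and 4.90 to 5.12 in WT.

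The DENND1 subfamily, exchange factors of Rab35 in human cells, had higher group means in KO-labelled cells in all 3 genes, and none passed either threshold. Dennd1c had 8.63, 9.34 and 8.66 on the KO-labelled arrays, against 8.48, 7.42 and 8.65 on the WT arrays. KO2 was the highest and WT2 by far the lowest array, and KO1 lay below WT3, so the groups overlapped (0.69, SE 0.36, adjusted p = 0.428). Without WT2 the difference was 0.31. Dennd1a had 6.93, 7.17 and 7.10 on the KO-labelled arrays, against 6.83, 6.01 and 6.90 on the WT arrays. Here the groups did not overlap, but only by a narrow margin, and WT2 was again the lowest (0.48, SE 0.25, adjusted p = 0.428), the difference being 0.20 without WT2. Dennd1b differed by 0.34 (SE 0.17, adjusted p = 0.409) with overlapping groups. Rab35 itself, which drives fast recycling to the plasma membrane and acts at the immunological synapse of T cells, had 8.83, 8.70 and 8.74 on the KO-labelled arrays, against 8.76, 8.66 and 8.65 on the WT arrays. The groups overlapped and all 6 arrays lay close together (0.07, 95% interval -0.23 to 0.36).

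**Figure D2:**
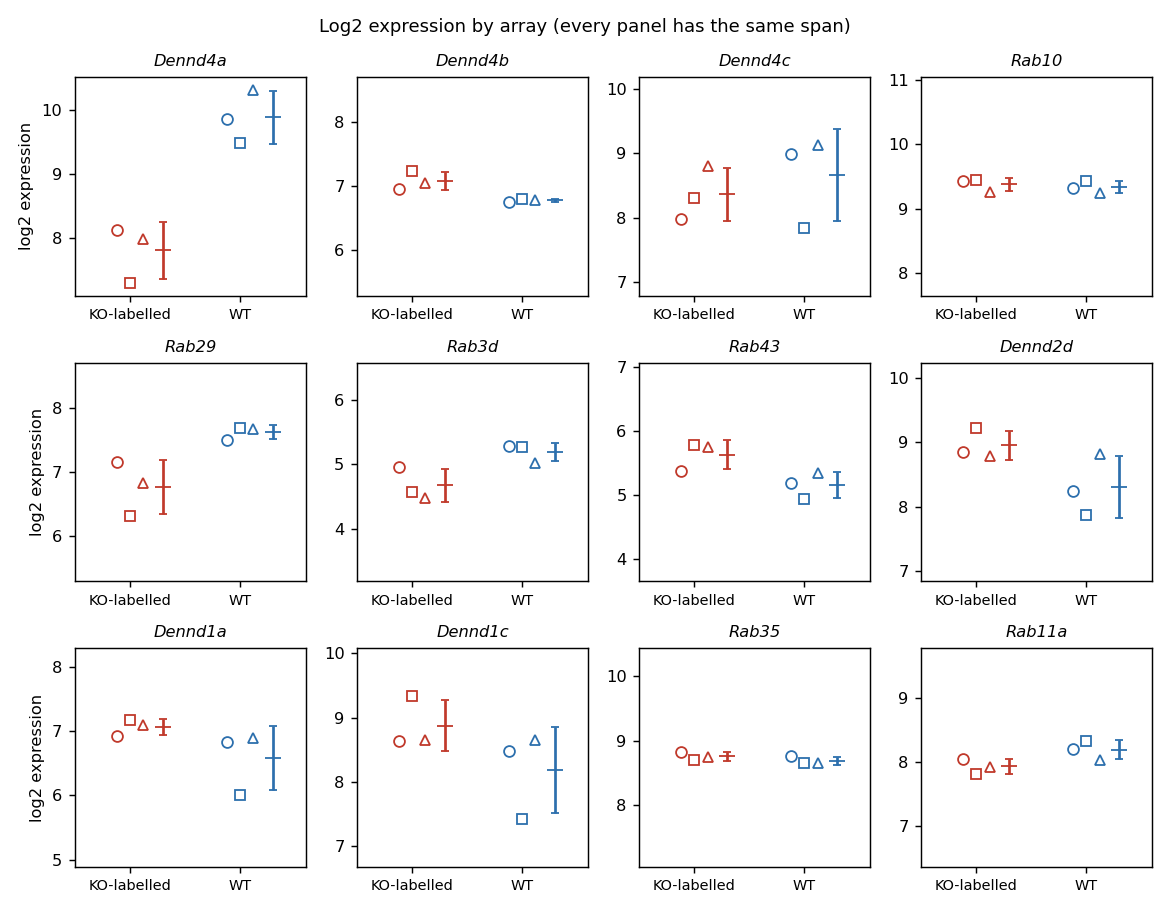
Log2 expression of 12 members on each array (each panel 1 gene, its y axis log2 RMA value over an equal span; red KO-labelled, blue WT; circles, squares and triangles are replicates 1, 2 and 3; bars are mean ± SD, n = 3). Dennd4a separates the groups by more than 1 log2 unit, Rab29 by less, while WT2 (blue square) sits low for Dennd4c, Dennd2d, Dennd1a and Dennd1c.

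The remaining DENN genes showed no difference past either threshold. Dennd6a and Dennd6b, Rab14 exchange factors in human cells, differed by 0.14 each, and Rab14, which moves cargo between Golgi and endosomes, by 0.17. Dennd10, whose human counterpart acts on Rab27, also differed by 0.14, and Dennd11 by 0.20 in its brightest row and by -0.04 in its second row. Dennd5a, an exchange factor of Rab39 in human cells, differed by 0.00 (95% interval -0.60 to 0.60), with KO2 lowest at 7.73 and KO3 highest at 8.62. Rab39 was dim, and so was Dennd3, whose human counterpart acts on Rab12. Rab12, which directs recycling cargo to degradation, differed by 0.29 (95% interval -0.13 to 0.70).

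Set side by side, the tested DENN genes had larger differences and more spread between replicates than the tested Rab GTPases. The median size of the difference, sign left aside, was 0.29 over the 13 tested DENN genes and 0.12 over the 36 tested Rab GTPases, with 0.21 over all genes tested. Without WT1 these medians were 0.21, 0.10 and 0.23, so that the DENN genes then lay no further from 0 than all genes. The median SD between replicates was 0.359 for DENN genes and 0.178 for Rab GTPases, with 0.231 for all genes tested. The 95% interval lay inside a 1.5-fold change either way for 3 of 13 DENN genes (23.1%), 21 of 36 Rab GTPases (58.3%) and 37.7% of all genes. The DENN count was 5 under median centring, 1 without KO1 or WT1 and 0 without KO3 or WT3, and the Rab count without single arrays was 16 to 21. The share of all genes was 35.6% under median centring. It fell to 23.8% without KO1, 22.3% without WT1, 25.3% without KO3 and 23.4% without WT3. A difference above 0 was found in 10 of 13 DENN genes, 16 of 36 Rab GTPases and 48.0% of all genes. Under median centring of the arrays these were 9 of 13, 10 of 36 and 38.3% of all genes, the shift being one of all genes. Without WT2 they were 9 of 13, 16 of 36 and 48.5%, and without WT1 9 of 13, 21 of 36 (58.3%) and 50.7%, with the Rab GTPases then mostly above 0. The DENN genes other than Dennd4a had medians of 0.11, 0.26 and 0.16 above their own means on the KO-labelled arrays, against -0.06, -0.32 and 0.09 on the WT arrays. KO1 and WT3 lay close together and WT2 stood lowest, being the lowest array for 7 of the 13 DENN genes and for 16 of the 52 members. How often WT2 was lowest over all genes was not counted, so this is not shown to be particular to the members. Over all genes tested, WT2 and KO2 were the least alike pair of arrays (r = 0.891). These are descriptions of the members, and no test between the families was made.

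**Figure D3:**
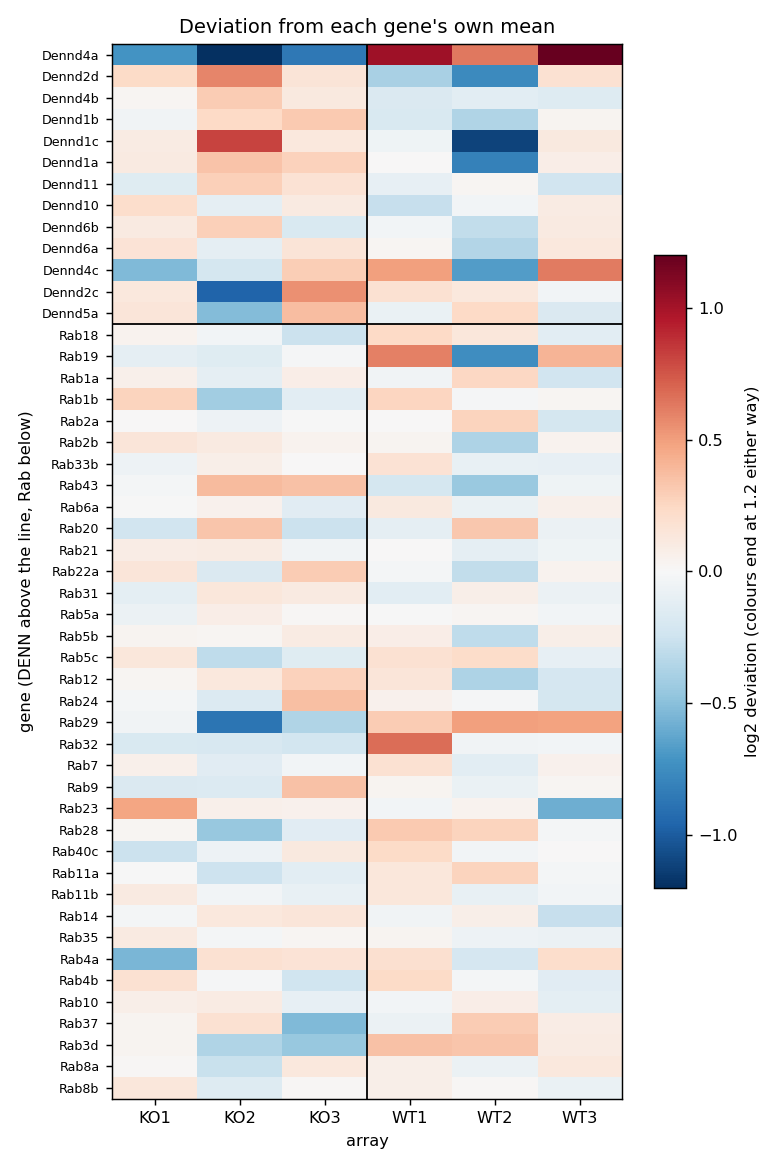
Deviation of each tested DENN gene (above the line) and Rab GTPase (below the line) from its own mean on each array, in log2 units (x axis, arrays; colours, blue below and red above the gene's mean, ending at 1.2 either way). Dennd4a is below its mean on all 3 KO-labelled and above it on all 3 WT arrays, while several DENN genes are lowest on WT2 and most Rab genes stay near 0.

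Among the Rab GTPases no gene passed the adjusted p in limma, and 3 of 36 had an unadjusted p of at most 0.05, against 14.1% of all genes. They were Rab29, Rab3d and Rab43. Rab3d, which acts in the exocytosis of secretory granules, had 4.96, 4.57 and 4.48 on the KO-labelled arrays, against 5.28, 5.27 and 5.03 on the WT arrays. All KO-labelled arrays lay below all WT arrays, KO1 being close to WT3 (-0.52, SE 0.17, adjusted p = 0.272). Rab43, of Golgi traffic, had 5.37, 5.77 and 5.75 on the KO-labelled arrays, against 5.19, 4.95 and 5.35 on the WT arrays. All KO-labelled arrays lay above all WT arrays, KO1 only just (0.47, SE 0.18, adjusted p = 0.310). Without WT1 the difference was -0.48 for Rab3d and 0.49 for Rab43.

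Groups did not overlap for 8 of the 52 members (15.4%), against 22.4% of all genes. The 4 lower ones (7.69%, against 10.9% of all genes) were Dennd4a, Rab29, Rab3d and Rab32, and the 4 higher ones (7.69%, against 11.6%) Rab43, Dennd4b, Dennd1a and Rab23. Rab32, of lysosome-related organelles, had 3.99, 3.98 and 3.96 on the KO-labelled arrays, against 4.84, 4.14 and 4.14 on the WT arrays. All KO-labelled arrays lay below all WT arrays, but only WT1, the array whose sex label its RNA did not bear out, reached the filter, and the size of the difference moved with it (-0.40, adjusted p = 0.442, and -0.16 without WT1). Rab23, a cilium-related inhibitor of hedgehog signalling, had 5.27, 4.86 and 4.85 on the KO-labelled arrays, against 4.76, 4.84 and 4.22 on the WT arrays. KO2 and KO3 were almost level with WT2, and KO1 and WT3 stood apart from their groups (0.38, adjusted p = 0.459).

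By route, the 7 tested Rab genes of the early endosome lay close to 0. They include the fusion factors Rab5a, Rab5b and Rab5c and had differences from -0.21 to 0.19 with a median of 0.08, with Rab22a, of early endosome sorting, at the top and Rab21, of integrin traffic, at 0.10. Rab5a had 8.76, 8.91 and 8.85 on the KO-labelled arrays, against 8.83, 8.85 and 8.80 on the WT arrays. The groups overlapped fully (0.01, 95% interval -0.28 to 0.31), while Rab5c had the smallest p of the route (-0.21, adjusted p = 0.602). The 6 tested recycling genes lay between -0.26 for Rab11a and 0.17 for Rab14, and Rab11b, Rab4a and Rab4b were at -0.01, -0.13 and -0.04. The second rows of Rab11b and Rab5b differed by -0.04 and 0.11, beside -0.01 and 0.10 in their brightest rows.

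Of the genes of the endoplasmic reticulum and Golgi, 9 were tested, from -0.18 to 0.47 with Rab43 at the top. Rab1a, for transport to the Golgi, differed by 0.02, Rab2a by -0.04 (-0.12 in its second row) and Rab6a by -0.06. Rab1b, also of that step, stood at -0.18, Rab18, of lipid droplets, at -0.17 and Rab33b, of autophagosome formation, at 0.01, each with overlapping groups. Rab19, a close relative of Rab43, differed by -0.18, with the KO-labelled arrays at 8.27 to 8.40 and the WT arrays spread from 7.67 to 9.02. Its KO-labelled arrays were level, whereas WT2 lay far below the other WT arrays. Of the late endosome and lysosome genes, 6 were tested, and beside Rab29, Rab32 and Rab12 they held Rab7, the fusion factor of late endosomes (-0.07), Rab24 (0.11) and Rab9.

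The 5 tested secretory genes lay between -0.52 for Rab3d and 0.04 for Rab10. Rab8b, seen at the T cell synapse, had 10.36, 10.06 and 10.24 on the KO-labelled arrays, against 10.29, 10.23 and 10.14 on the WT arrays. The groups overlapped, and the difference of -0.00 had a 95% interval of -0.33 to 0.33. Rab8a differed by -0.08 and Rab37, of secretory granules, by -0.21, with KO3 lowest at 7.34. Of the other Rab genes, Rab28 had the smallest p, with 6.77, 6.29 and 6.61 on the KO-labelled arrays, against 7.06, 7.01 and 6.72 on the WT arrays. KO1 lay just above WT3, so the groups overlapped (-0.37, SE 0.18, adjusted p = 0.398). Of the 3 members matched by name alone, Rab5if had the smallest p, with 9.25, 8.89 and 9.17 on the KO-labelled and 9.37, 9.72 and 9.14 on the WT arrays (-0.31, adjusted p = 0.503). Its groups overlapped, as did those of Rab3ip (0.10) and Rab10os (0.16).

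**Figure D4:**
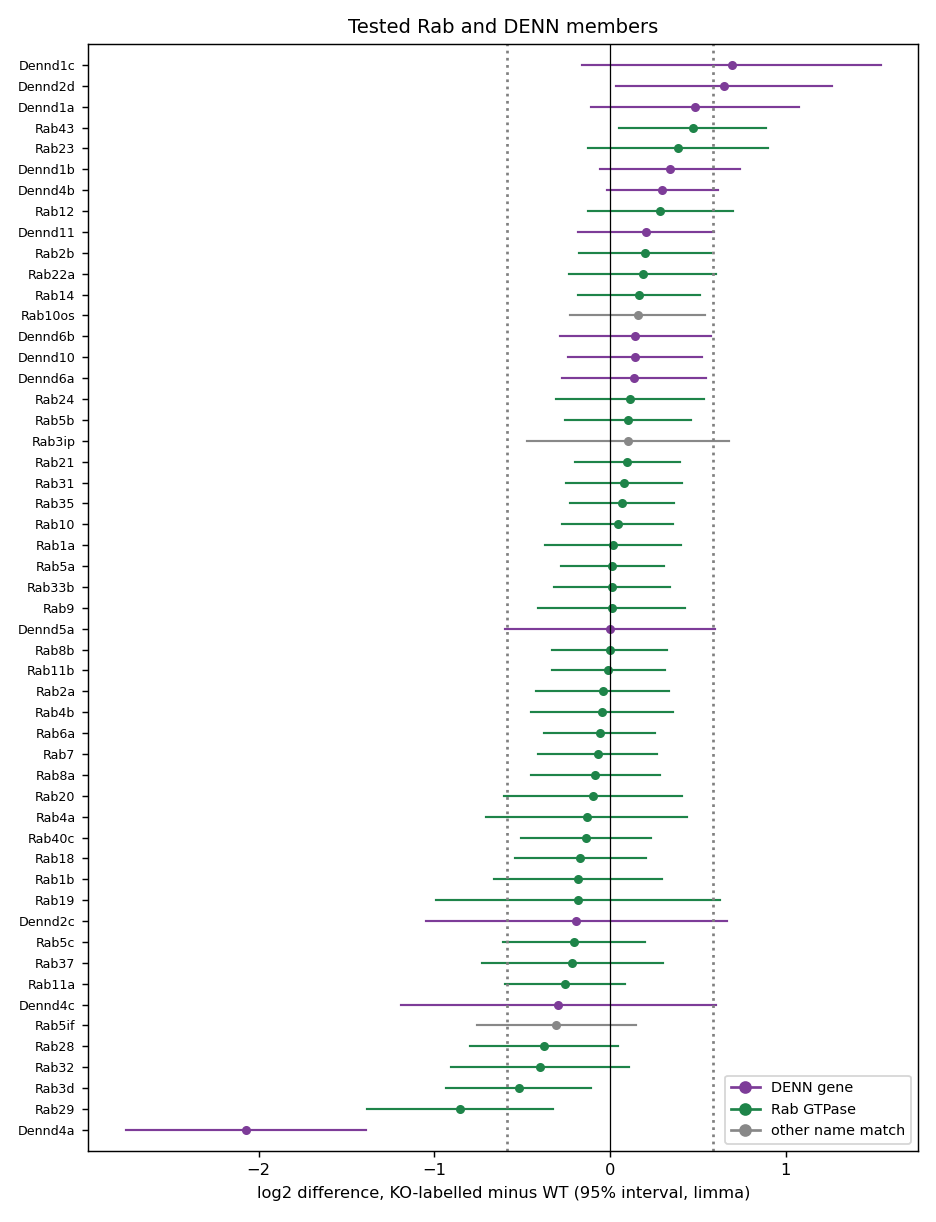
Difference of each of the 52 tested members (y axis, gene, ordered by difference; x axis, log2 difference KO-labelled minus WT; points are limma estimates with 95% intervals, n = 3 per group; purple DENN genes, green Rab GTPases, grey members matched by name alone; dotted lines mark a 1.5-fold change). Dennd4a at -2.07 stands clear of all other members, the next being Rab29 at -0.85, and the intervals of most Rab GTPases lie between the dotted lines.

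The other parts of the Rab cycle were read from 4 lists. Of 18 tested exchange factors without the DENND name, 1 was higher (5.56%, against 3.97% of all genes) and 0 lower at the study's threshold. This was Als2cl, related to the Rab5 exchange factor alsin, which had 6.30, 7.05 and 7.23 on the KO-labelled arrays, against 5.07, 4.90 and 4.92 on the WT arrays. The groups lay far apart, with KO1 the lowest KO-labelled array (1.90, SE 0.25, adjusted p = 0.0329, and 0.0986 without WT1). The mean of its rows differed by 0.94. The list's median difference was 0.11, beside -0.01 for all genes.

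Of 30 tested GAPs, 2 were higher (6.67%, against 3.97% of all genes) and 0 lower at the study's threshold, and the median was 0.07. Usp6nl, which encodes a GAP of Rab5 and Rab43 in human cells, had 5.67, 5.59 and 6.04 on the KO-labelled arrays, against 4.32, 4.08 and 4.04 on the WT arrays. The groups were widely separated (fitted difference 1.62, SE 0.17, adjusted p = 0.0160, and 0.0578 without WT1), but WT2 and WT3 lay below the filter, where RMA compresses values, so the size is uncertain. Rabgap1l, of the same TBC-domain family of GAPs, had 7.73, 7.96 and 8.25 on the KO-labelled arrays, against 7.57, 6.86 and 7.32 on the WT arrays. These groups were apart by a small gap between KO1 and WT1 (0.73, adjusted p = 0.247). None of the 6 tested genes that prenylate or extract Rabs passed, the smallest p being that of Chml, a Rab escort protein (-0.27, adjusted p = 0.584), and the median was -0.06.

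Of 23 tested effectors, 2 were lower (8.7%, against 4.33% of all genes) and 0 higher, with a median of -0.01. Sytl3, a synaptotagmin-like protein that binds Rab27 in mouse, had 3.68, 3.86 and 4.64 on the KO-labelled arrays, against 8.24, 8.11 and 7.29 on the WT arrays. The groups were far apart (fitted difference -3.82, SE 0.34, adjusted p = 0.00837, and 0.0441 without WT1), but KO1 and KO2 lay below the filter, so that the size is uncertain here too. Rabepk, which encodes a Rab9 effector, had 6.18, 5.29 and 5.88 on the KO-labelled arrays, against 6.49, 6.35 and 6.51 on the WT arrays. The groups did not overlap, with KO2 lowest (-0.66, adjusted p = 0.291). The related Sytl1 and Sytl2 differed by 0.06 and -0.05 with overlapping groups, and Lrrk2, whose human product binds Rab29, was dim on all 6 arrays.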

How the data were processed

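RNA of 6 samples, 3 Runx3-/- and 3 WT, was hybridised to 1 array each. As the labels and methods state, the authors normalised the scanner files by RMA with GC correction in Partek and deposited log2 values, 1 column per array and no pooling. The versions of the software and annotation were not stated in those sources. RMA gives no detection calls and compresses low values, so a difference of a dim gene is understated, and the number of arrays limits the precision.

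Of 35399 rows, 21789 had 1 gene symbol, 1621 several and 11989 none. KO-labelled and WT arrays were compared with limma 3.58.1 (R 4.3.3, lmFit and eBayes, two-sided, without covariates), with Benjamini-Hochberg adjustment over all 10021 genes tested. The replicates are individual mice, so p-values measure the spread between mice and cultures. The replicate numbers were not taken to pair the arrays. The fit was tested on simulated data. Alternatives were other filters, quantile normalization, median centring, the replicate number as a block, other variance models, the mean of a gene's rows, and each array left out.

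The members, gene lists and tests were chosen with earlier results of these data known. The genes named were Dennd4a with its rows, members past a threshold, the other tested DENN genes, the member with the smallest p of each route, up to 8 Rab genes whose groups did not overlap, up to 4 genes past the study's threshold of each list or else the one with the smallest p, and Runx3. Chosen after their values were seen were the neighbours, the promoters printed, the 12 genes drawn by array, the count of intervals inside 1.5-fold, the roles of Dennd10 and Dennd11, and the Rab and effector genes named beyond the rule. Promoters and gene order came from RefSeq (GRCm38.p6), and figures were drawn with matplotlib 3.10.9.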

Additional observations from a re-analysis of the deposited data

How the results depend on the processing

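Over 14 alternatives, the 29 named genes gave 403 differences (Dennd6b, Rab32 and Chml fell below the 60th percentile filter). Of these, 370 kept their direction and their side of an adjusted p of 0.05, 26 lost the call and 7 changed sign. Only Dennd4a, Als2cl, Usp6nl and Sytl3 had a call to lose, so for the other named genes keeping their side meant staying without a call. The call held in 5 alternatives for Als2cl, 8 for Usp6nl and 12 for Sytl3. The call of Dennd4a held in 5 alternatives, and the count of members past the adjusted p, 1 as reported, was 0 with no filter on dim genes (adjusted p = 0.0861), with the replicate block (0.0964), with an unmoderated linear model (0.280) and without any single array (0 in all 6). Over all genes the count of 63 was 36 with no filter, 1 with the replicate block, 0 with the unmoderated model, where 267 genes were lower and 241 higher at the study's threshold, and 9 to 67 without single arrays. Of the 9 Dennd4a rows, 7 passed as reported, 1 with no filter, 0 with the block, 0 with the unmoderated model and 0 to 5 without single arrays. At the study's threshold, 1 member was higher as reported and 0 under quantile normalization, median centring, the replicate block and the unmoderated model, and 0 to 2 without single arrays. The lower members, 2 as reported, were 3 under quantile normalization and median centring, with Rab3d added, and 2 to 4 without single arrays. Deviations from the group means gave r = -0.13, -0.37 and -0.13 for arrays of the same replicate number, and -0.45 to 0.44 for the other pairs. Deviations from a mean of 3 arrays are tied to each other, so these values cannot decide whether arrays were paired. The replicate number is not known to pair the arrays.

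The changes of sign were in Dennd5a, Dennd6a and Dennd2c, whose differences as reported were 0.00, 0.14 and -0.19. Dennd5a, at 0.00, was -0.067 under median centring and -0.19 to 0.26 without single arrays, below 0 without KO1, KO3, WT1 or WT3. Without single arrays Dennd2c ran from -0.51 to 0.24, above 0 without KO2, and Dennd6a from -0.0043 to 0.23, below 0 without WT2. The cause was not tested. Median centring moved the median difference of all genes to -0.08, beside -0.01 as reported. With 3 arrays per group, a Rab gene whose interval reaches past 1.5-fold is not shown to be level.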
